A study of Mus musculus with 12 samples.

Results

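WT C2C12 cells after 4 days of myogenic differentiation (d4) were compared with WT C2C12 cells before differentiation (d0). C2C12 is a line of mouse myoblasts that was derived from adult skeletal muscle and that can be kept proliferating or be made to fuse into myotubes. The comparison was chosen by genotype and day, and it took 6 of the 12 libraries of the series, 3 from d4 and 3 from d0. The d4 cells had been moved to medium with little horse serum, and the d0 cells were collected undifferentiated in growth medium rich in fetal bovine serum. Both groups were the parental line with no edited allele, and the remaining 6 libraries came from cells with a homozygous knock-in mutation of Pgam2. Genes were joined by their identifier, which left 21774 genes listed at both days of 26967 listed at either day, and 14336 of them passed the filter on low counts and were tested. The labels give the day and a replicate number but not how the replicates were grown, and the methods state fewer biological replicates per condition than the 3 libraries found here, so that every SD and p-value below rests on differences among libraries that may be only technical repeats. A whole culture was sampled at each day. In such bulk samples fewer cells of a type and less RNA per cell cannot be told apart, so every level below is a mean over myotubes and the mononucleated cells that remain beside them.

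Skeletal myoblasts are held in a proliferating state by serum growth factors. When these are withdrawn, basic helix-loop-helix (bHLH) factors of the MyoD family work with MEF2 proteins to switch on muscle genes, the cells leave the cell cycle for good, and they then fuse into multinucleated myotubes that assemble sarcomeres. Embryonic and perinatal forms of contractile proteins and of the acetylcholine receptor are made first, and adult forms replace them in a maturing, innervated fiber.

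The libraries of a day were close to each other and far from those of the other day. Read totals were 16165803 to 19991460 at d4 and 20823648 to 21412560 at d0. Levels are given as CPM, reads per library size with TMM factors applied, and a pair of numbers in brackets such as 1.71 ± 0.09 is a log2 fold change of d4 over d0 with its SE. Across genes, log2 CPM correlated with r of 0.987 to 0.989 among d4 libraries, 0.990 to 0.992 among d0 libraries and 0.879 to 0.885 between days, with genes not being independent replicates. The first principal component held 88.9% of the variance, and the biological coefficient of variation was 9.59%. Genes were called when edgeR's quasi-likelihood test gave a Benjamini-Hochberg adjusted p under 0.05 and the absolute log2 fold change was above 1. By this rule 1800 genes were higher at d4 and 1863 were lower, which is 12.6% and 13.0% of all genes tested and 25.6% together. For 67.9% of the tested genes the values of the days did not overlap. Most genes named below were picked for large changes, so their separation between days follows largely from that choice. The median log2 fold change over all tested genes was -0.03. The largest changes were mostly rises, since 216 called genes rose and 22 fell by over 5 on the log2 scale. Genes called higher took 21.3% to 22% of the reads at d4 and 5.03% to 5.16% at d0, whereas genes called lower took 4.10% to 4.22% at d4 and 12.3% to 12.9% at d0.

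**Figure D1:**
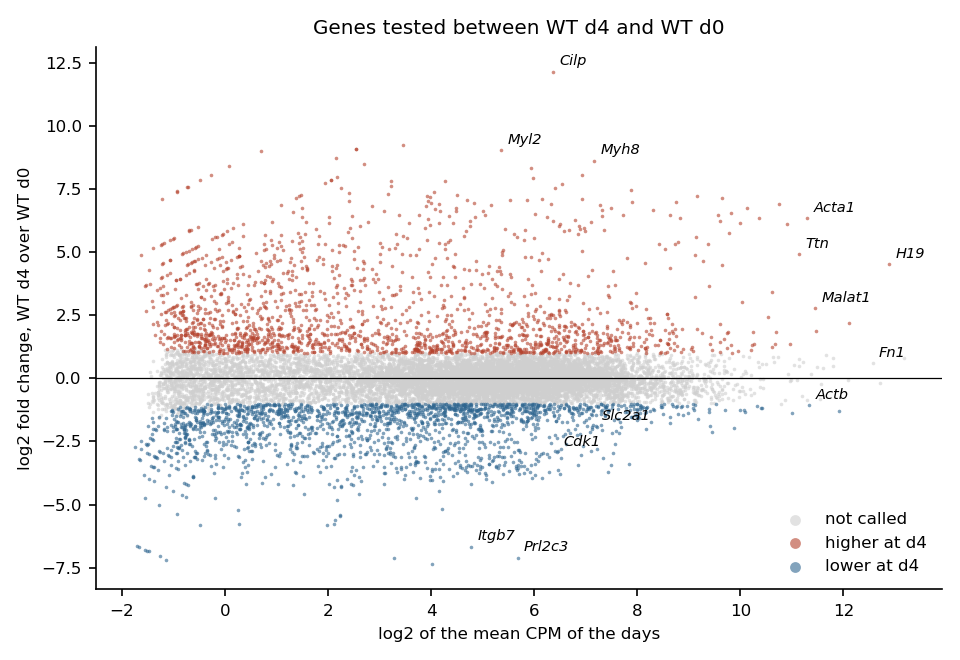
Log2 fold change of WT d4 over WT d0 (y axis) against the log2 of the mean CPM of the days (x axis) for the 14336 tested genes, with 1 point per gene. Red points are the 1800 genes called higher at d4, blue points the 1863 called lower and grey points those not called, and rises reach farther from 0 than falls.

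The line carried its defining markers at both days. Myod1, the bHLH factor that commits cells to the muscle lineage (ENSMUSG00000009471, mm10 chromosome 7, 46376474 to 46379099), had 220, 238 and 226 CPM at d4 and 76.5, 71.3 and 61.7 CPM at d0, and rose by a log2 fold change of 1.71 ± 0.09 (SE, edgeR adjusted p = 8.27e-11). Myf5, the family member most tied to proliferating myoblasts, had 29.6, 28.7 and 28.7 CPM at d4 and 36.2, 44.1 and 58.4 CPM at d0, and with a log2 fold change of -0.67 it was not called. Every d4 library was above every d0 library for Myod1 and below every d0 library for Myf5. Desmin (Des), the intermediate filament of muscle cells, averaged 4473 ± 147 CPM at d4 and 1208 ± 136 CPM at d0 (SD, n = 3 each). Cdh15, the M-cadherin of myoblasts, averaged 618 ± 5.92 CPM at d4 and 254 ± 21.2 CPM at d0, and both were called higher at d4 (log2 fold changes of 1.89 and 1.28). Of the markers of differentiated cells, Myog, the bHLH factor that drives terminal differentiation, had 1279, 1345 and 1261 CPM at d4 and 37.7, 31.4 and 28.0 CPM at d0. Ckm, the muscle creatine kinase, had 300, 306 and 310 CPM at d4 and 3.35, 2.71 and 1.76 CPM at d0. Both were far higher in all d4 libraries, and the d0 libraries also held reads of them before the change of medium.

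The 10 largest rises among called genes with at least 5 CPM in the higher day were Cilp, Tekt5, Rbfox1, Hspb3, Myl2, Tmem252, Myh8, Nup210, Casq1 and Myh4. Cilp, a secreted protein of cartilage and other connective tissue (ENSMUSG00000042254, chromosome 9, 65265180 to 65280605), had 163, 173 and 157 CPM at d4 and 0.0465, 0.0444 and 0 CPM at d0. With 8749 reads at d4 and 2 at d0, the ratio of reads to library totals was 4997 (exact 95% interval 1383 to 41268, counting error only). Rbfox1, a splicing regulator of muscle and neurons, had 622 reads at d4 and 1 at d0, a ratio of 711 (127 to 28108). Nup210, a nuclear pore protein known to be needed for muscle differentiation, had 690 reads at d4 and 2 at d0, a ratio of 394 (109 to 3261). Hspb3, a small heat shock protein of muscle, had 610 reads at d4 and 1 at d0, a ratio of 697 (125 to 27567). The size of these folds rests on 1 or 2 reads at d0, while every d4 library lay far above every d0 library. Without d0 replicate 1 the fitted log2 fold change of Rbfox1 was 10.86 in place of 9.10, and without d0 replicate 2 that of Hspb3 was 10.83 in place of 9.10 and that of Tmem252 was 10.45 in place of 8.71. Tekt5, a tektin of the sperm tail, and Tmem252, a membrane protein, had 1162 and 476 reads at d4 and 2 and 1 read at d0. Myl2, the slow and cardiac regulatory light chain, had a log2 fold change of 9.03, which was 10.69 without d0 replicate 1 and 8.44 without d0 replicate 3. Casq1, calsequestrin of fast fibers, had one of 8.33, and of 9.03 without d0 replicate 3. Myl2 overlaps Ccdc63 and Casq1 overlaps Gm17224, and since the use of strand in counting is not given, reads of such overlapping genes may be shared. The same holds for Myh1 and Myhas, Ccnd3 and Bysl, Col4a1 and Col4a2, Plin4 and Hdgfl2, and Nefl and Nefm.

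The 10 largest falls were Prl2c2, Car6, Prl2c3, Itgb7, Ngfr, Serpinb2, Selp, Gm18194, Ptprn and Hhip. Itgb7, the beta7 integrin chain best known from lymphocytes (ENSMUSG00000001281, chromosome 15, 102215995 to 102231944), had 0.802, 0.316 and 0.456 CPM at d4 and 53.1, 47.6 and 62.3 CPM at d0, a log2 fold change of -6.67 ± 0.21 (edgeR adjusted p = 1.23e-13). Prl2c3, a proliferin, had 1.02, 0.474 and 0.716 CPM at d4 and 108, 127 and 70.6 CPM at d0. Prl2c2 had 0, 0.211 and 0.391 CPM at d4 and 33.6, 38.7 and 24.7 CPM at d0. Proliferins are secreted hormones of the prolactin family that growing mouse cells make, and since Prl2c2 and Prl2c3 are near-identical copies, the split of reads between them is uncertain. Hhip, a membrane protein that binds and restrains hedgehog ligands, had 0.909, 1.16 and 0.911 CPM at d4 and 32.2, 43.8 and 31.8 CPM at d0 (log2 fold change -5.16 ± 0.20). Ngfr, the low-affinity neurotrophin receptor, had 0.107, 0.264 and 0 CPM at d4 and 10, 6.84 and 6.57 CPM at d0. Car6 and Gm18194 depended on d0 replicate 3, at 38.8 CPM against 10.7 and 8.62 CPM in the other d0 libraries for Car6, and without it their log2 fold changes were -6.14 and -3.17 in place of -7.13 and -5.44. Without d4 replicate 2 the log2 fold change was -8.22 for Car6, -7.16 for Gm18194, -6.91 for Ngfr, -7.03 for Serpinb2 and -4.98 for Selp, in place of -7.13, -5.44, -5.82, -5.76 and -5.60. Without d4 replicate 1 it was -6.62 for Ptprn in place of -5.43 and -6.76 for Prl2c2 in place of -7.37, and without d4 replicate 3 it was -8.17 for Prl2c2. Each of these 7 genes was still called lower without the library named.

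Genes of the contractile apparatus rose together. All 8 tested myosin heavy chains of muscle rose, with a median log2 fold change of 6.86. Myh3, the embryonic chain (ENSMUSG00000020908, chromosome 11, 67078300 to 67102291), had 3465, 3443 and 3389 CPM at d4 and 30.0, 33.2 and 23.1 CPM at d0, a log2 fold change of 6.90 ± 0.13 (edgeR adjusted p = 2.92e-16). Myh8, the perinatal chain, had 280, 290 and 289 CPM at d4 and 0.651, 0.755 and 0.750 CPM at d0 (8.62 ± 0.12). Among the adult fast chains, Myh1 had 871, 820 and 865 CPM at d4 and 6.74, 6.31 and 6.88 CPM at d0 (7.001 ± 0.10). No d4 library overlapped a d0 library for any of these 3 chains. Per kilobase of gene length (RPKM, CPM divided by length in kilobases), the mean level at d4 was 567 for Myh3, 134 for Myh1, 40.3 for Myh4, 24.3 for Myh8 and 4.15 for Myh2. At d0 the means of these chains in the same order were 4.75, 1.05, 0.152, 0.0611 and 0.0355 RPKM, so the embryonic chain led at both days. Myh3, Myh2, Myh1, Myh4 and Myh8 lie in this order along 67078300 to 67308634 of chromosome 11, and reads from stretches that these related chains share may have been split between them. Of the 3 tested chains of other cells, Myh14 rose (2.92), Myh10 fell (-1.19) and Myh9, the main non-muscle chain, had a log2 fold change of -0.72 and was not called.

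The partners of these chains moved with them. The myosin light chain list also holds light chain kinases (Mylk, Mylk2 and Mylk4) and myosin-binding proteins (Mybpc1, Mybpc2 and Mybph), all of which rose. Of its 15 tested members, 11 rose and 1 fell. The member that fell was Myl9, a smooth muscle and non-muscle chain with a log2 fold change of -1.01. It was -0.88 and no longer called without d0 replicate 1. Myl4, the embryonic and atrial essential chain, had 1539, 1589 and 1654 CPM at d4 and 14.5, 10.4 and 9.44 CPM at d0 (7.13 ± 0.14). Of 24 thin filament genes, 16 rose and 4 fell, with a median of 3.95. Acta1, the skeletal alpha-actin, had 4822, 5042 and 5006 CPM at d4 and 76.0, 57.2 and 51.0 CPM at d0 (6.34 ± 0.14, edgeR adjusted p = 1.46e-15). Actb, the cytoplasmic beta-actin, had 1629, 1745 and 1674 CPM at d4 and 3914, 3419 and 3155 CPM at d0. The skeletal actin was thus higher in all d4 libraries and the cytoplasmic actin lower, at a log2 fold change of -1.06 for Actb, which was -0.93 and below the fold threshold without d0 replicate 1. Actg1, the cytoplasmic gamma-actin, was just outside that threshold at -0.998, and was called lower without d0 replicate 2, d0 replicate 3 or d4 replicate 2 (-1.04, -1.07 and -1.03). The other 3 that fell were Tpm4 (-1.36), a cytoplasmic tropomyosin, Actg2 (-2.04), the enteric smooth muscle actin, and Tmod3 (-1.25), the widely expressed tropomodulin, none of them a component particular to skeletal muscle.

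Z-disc and M-line genes, which anchor and tether the filaments, rose in 30 of 33 tested and fell in none, with a median of 4.03. Myoz2, a Z-disc protein that binds calcineurin, had 127, 122 and 127 CPM at d4 and 0.651, 0.578 and 0.309 CPM at d0 (7.92 ± 0.16). Actn2, the muscle alpha-actinin that cross-links actin at the Z-disc, had 163, 179 and 167 CPM at d4 and 1.07, 1.2 and 0.485 CPM at d0 (7.52 ± 0.16). Ttn, the giant spring that spans the sarcomere from Z-disc to M-line, had 4757, 4162 and 4140 CPM at d4 and 143, 143 and 145 CPM at d0 (4.92 ± 0.09). For each of these 3 genes all d4 libraries were above all d0 libraries.

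**Figure D2:**
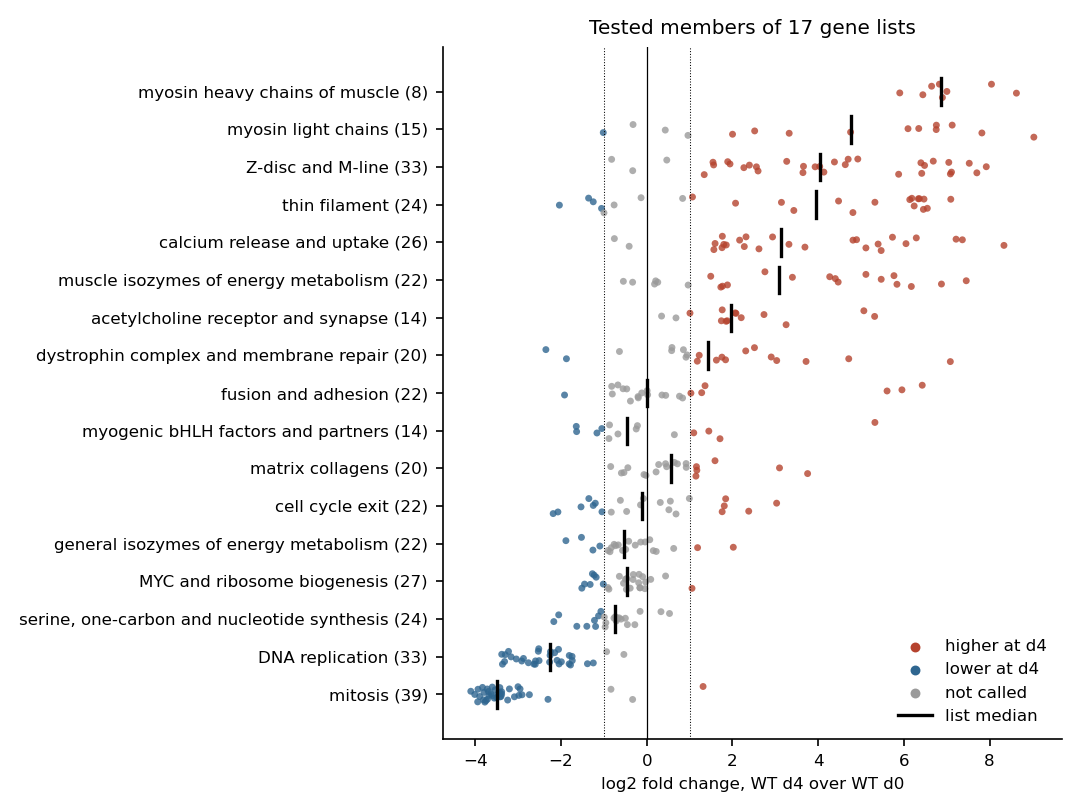
Log2 fold change of WT d4 over WT d0 (x axis) of the tested members of 17 gene lists, given in brackets after each name, with 1 point per gene and a black bar at the list median. Dotted lines mark a log2 fold change of 1 in either direction, and the medians run from 6.86 for myosin heavy chains of muscle to -3.50 for mitosis genes. The myosin light chain list also holds light chain kinases and myosin-binding proteins.

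Genes of calcium handling rose in 24 of 26 tested and fell in none (median 3.13). Casq2, the calsequestrin of slow and cardiac muscle that stores calcium in the sarcoplasmic reticulum, had 1155, 1111 and 1134 CPM at d4 and 9.25, 7.24 and 6.39 CPM at d0 (7.22 ± 0.13). Cacna1s, the voltage sensor of the T-tubule, had 221, 220 and 218 CPM at d4 and 3.26, 2.62 and 2.56 CPM at d0 (6.29 ± 0.11). Pvalb, the calcium buffer of fast fibers, had 30.2, 34.6 and 34.6 CPM at d4 and 0.233, 0.133 and 0.220 CPM at d0 (7.36 ± 0.21). For all 3 the d4 libraries were far above the d0 libraries, and Pvalb was the one with few reads at d0. Atp2a1, the fast-fiber calcium pump, had 702, 721 and 750 CPM at d4 and 21, 22 and 19.8 CPM at d0 (5.11 ± 0.09).

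Muscle ion channels were less uniform, with 7 of 12 tested higher, 1 lower and a median of 1.92. Scn4a, the sodium channel of the muscle action potential, had 61.5, 65.2 and 63.5 CPM at d4 and 0.884, 0.444 and 0.573 CPM at d0 (6.64 ± 0.17). Kcnn3, a calcium-activated potassium channel found in immature or denervated muscle, had 81.2, 86.9 and 78.2 CPM at d4 and 2.56, 2.58 and 2.12 CPM at d0 (5.08 ± 0.12). The gene that fell was Kcnj2, the inward rectifier Kir2.1, with 16.3, 13.8 and 12.7 CPM at d4 and 58.8, 99.0 and 90.4 CPM at d0 (-2.53 ± 0.17, edgeR adjusted p = 1.36e-09). Kir2.1 is known from human myoblasts to hyperpolarize the cell at the start of differentiation, and here its transcript was lower in all d4 libraries than in any d0 library.

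Genes of the neuromuscular synapse rose in 12 of 14 tested, with a median of 1.97. Chrng, the fetal gamma subunit of the acetylcholine receptor, had 791, 830 and 875 CPM at d4 and 22, 21.2 and 19.4 CPM at d0 (5.32 ± 0.10, edgeR adjusted p = 1.66e-16). Colq, the collagen tail that anchors acetylcholinesterase, had 6.04, 9.59 and 9.11 CPM at d4 and 0.326, 0.267 and 0.132 CPM at d0 (5.06 ± 0.34). Erbb3, a neuregulin receptor, had 175, 186 and 197 CPM at d4 and 19.6, 22.4 and 16.5 CPM at d0 (3.25 ± 0.11). For all 3 the libraries of the days were separate.

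In the dystrophin complex and membrane repair list, 12 of 20 tested rose and 2 fell, with a median of 1.42. Caveolins, the coat proteins of small membrane pits, went in opposite directions. Cav3, the muscle caveolin, had 51.5, 47.4 and 56.2 CPM at d4 and 0.605, 0.400 and 0.132 CPM at d0 (7.08 ± 0.22). Cav1 had 54.7, 62.8 and 50.5 CPM at d4 and 195, 221 and 201 CPM at d0 (-1.87 ± 0.09), and Cav2 had 7.59, 9.54 and 7.42 CPM at d4 and 37.1, 48.8 and 40.0 CPM at d0 (-2.35 ± 0.14). Cav1 and Cav2, the general forms, were the 2 that fell. Utrn, the dystrophin relative utrophin, had a log2 fold change of 0.68 and was not called. Dmd itself was listed at d4 alone, with 41, 51 and 54 reads, and could not be tested.

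Among regulators, the myogenic bHLH factors and their partners split into 4 higher, 4 lower and 6 not called of 14 tested. Beside Myod1 and Myog, Bhlhe41, a circadian repressor that can hold back MyoD, had 148, 147 and 135 CPM at d4 and 51.7, 54.5 and 51.2 CPM at d0 (1.45 ± 0.08). The Id proteins bind the bHLH partners of MyoD and keep them from DNA. Id3 had 26.5, 28.1 and 31.0 CPM at d4 and 100, 88.5 and 78.6 CPM at d0 (-1.64 ± 0.11), and Id1 and Id2 had log2 fold changes of -1.05 and -1.16. Twist2, a repressor of myogenesis that acts on the same partners, had one of -1.64. The 4 that fell were thus the 3 Id genes and Twist2. The calls of Id1 and Id2 were close to the fold threshold, at -0.96, -0.98 and -0.97 for Id1 without d0 replicate 1, d0 replicate 2 or d4 replicate 1, and -0.98 for Id2 without d0 replicate 2.

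Of 25 tested regulators of the MEF2, PAX and related families, 8 rose, 1 fell and 16 were not called. Mef2c had 253, 244 and 217 CPM at d4 and 6.98, 8.35 and 6.48 CPM at d0, and Mef2d rose by 1.42 on the log2 scale. Klf5, a zinc-finger factor that works with MyoD and MEF2 at muscle genes in mouse myoblasts, had 137, 139 and 135 CPM at d4 and 36.4, 42.5 and 35.2 CPM at d0 (1.85 ± 0.09). Esrrg, a nuclear receptor of oxidative muscle, had 4.81, 6.90 and 5.92 CPM at d4 and 0, 0.0444 and 0.176 CPM at d0. Its log2 fold change of 6.18 rested on 5 reads at d0 and was 7.65 without d0 replicate 3. The member that fell was Hdac7, a class II histone deacetylase that holds MEF2 inactive, at -1.07, and at -0.98 and not called without d0 replicate 1.

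Splicing factors known to remodel muscle transcripts also split. Of 16 tested, 4 rose, namely Rbfox1, Srpk3, Rbm24 and Rbm38. Rbm24, which enforces inclusion of muscle exons, had 225, 236 and 238 CPM at d4 and 3.30, 3.78 and 4.59 CPM at d0 (5.90 ± 0.12). Srpk3, a kinase of splicing factors that MEF2 controls in mouse muscle, had 51.7, 57.6 and 61.6 CPM at d4 and 0.605, 0.844 and 0.573 CPM at d0 (6.39 ± 0.16). Ptbp1, a repressor of tissue-specific exons, had 86.9, 98.9 and 86.6 CPM at d4 and 320, 275 and 260 CPM at d0 (-1.65 ± 0.09). Mbnl3, the muscleblind protein tied to proliferating myoblasts, had 1.82, 3.06 and 3.39 CPM at d4 and 15.4, 16.5 and 16.4 CPM at d0 (-2.56 ± 0.19). The factors that rose and the 2 that fell were each separate between days.

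**Figure D3:**
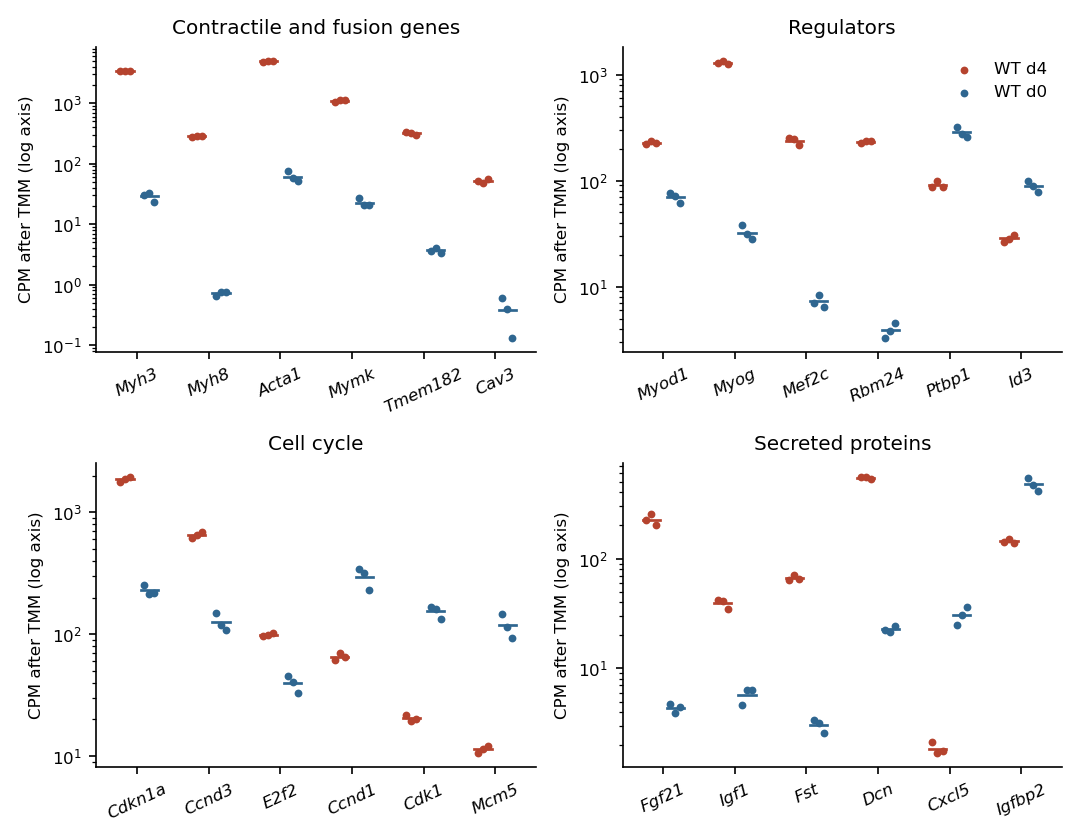
CPM after TMM normalization (y axis, log scale) of 24 genes in 4 roles, with 1 point per library, a bar at the mean of 3 libraries, and WT d4 (red) left of WT d0 (blue). For each of the 24 genes the d4 and d0 libraries did not overlap, as for Myog at 1261 to 1345 CPM at d4 and 28.0 to 37.7 CPM at d0. The 24 were picked from called genes, and the libraries were also separate for 67.9% of all tested genes.

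Of 22 tested fusion and adhesion genes 6 were higher and 1 was lower, with a median of 0.01. Of all genes tested 12.6% were higher and 13.0% lower. Mymk, the membrane protein myomaker that starts membrane mixing, had 1062, 1116 and 1134 CPM at d4 and 27.0, 20.6 and 20.5 CPM at d0. Tmem182, a muscle membrane protein that in mice restrains fusion through integrins, had 333, 317 and 299 CPM at d4 and 3.58, 4.04 and 3.40 CPM at d0 (6.43 ± 0.11, edgeR adjusted p = 1.33e-16). A fusogen and a restraining protein thus rose in the same cultures. Itga3, the laminin-binding integrin alpha3 chain, had 59.2, 63.4 and 65.2 CPM at d4 and 272, 236 and 202 CPM at d0 (-1.92 ± 0.10). Cd81, a tetraspanin, had a log2 fold change of 1.03 and was called higher, and with library totals as the scale it was at 0.89 and not called.

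Genes of DNA replication fell in 31 of 33 tested, with a median of -2.27, and none rose. Mcm5, a subunit of the replicative helicase, had 10.5, 11.5 and 12 CPM at d4 and 148, 114 and 94.0 CPM at d0 (-3.38 ± 0.15). Cdc6, which loads that helicase, had 1.93, 2.21 and 3.06 CPM at d4 and 29.5, 25.3 and 16.3 CPM at d0 (-3.32 ± 0.23). Tk1, the thymidine kinase of dividing cells, had 8.72, 8.64 and 12.2 CPM at d4 and 118, 94.6 and 78.0 CPM at d0 (-3.30 ± 0.16). Each was around 10-fold lower at d4. The 2 not called were Gins3 (-0.53) and Rrm2, the small subunit of ribonucleotide reductase, which kept 152, 167 and 168 CPM at d4 with 360, 333 and 239 CPM at d0. Rrm2 had a log2 fold change of -0.94, and of -1.10 with a call without d0 replicate 3.

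Genes of mitosis fell in 36 of 39 tested, with a median of -3.50. Ncapg, a condensin subunit, had 3.32, 4.06 and 4.62 CPM at d4 and 56.6, 84.0 and 64.8 CPM at d0 (-4.11 ± 0.17). Cenpa, the histone of the centromere, had 6.36, 9.54 and 6.77 CPM at d4 and 122, 119 and 110 CPM at d0 (-3.94 ± 0.13). Cdc25c, the phosphatase that releases the mitotic kinase, had 1.28, 2.21 and 2.02 CPM at d4 and 26.7, 32.6 and 29.7 CPM at d0 (-4.01 ± 0.18). No value of these at d4 came near a value at d0. The member that rose was E2f2, an E2F transcription factor, with 96.1, 98.1 and 102 CPM at d4 and 45.2, 40.7 and 33.2 CPM at d0 (1.31 ± 0.10, edgeR adjusted p = 1.64e-08). Its relatives E2f1 and E2f8, which were not called, had log2 fold changes of -0.83 and -0.33, and E2f8 was the only one of the 3 whose libraries overlapped between days, at 30.6 to 36.1 CPM at d4 and 30.5 to 48.9 CPM at d0.

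The cell cycle exit list, which holds brakes of the cycle and genes that drive it, had 5 higher and 7 lower of 22 tested. Cdkn1a, the inhibitor p21 (ENSMUSG00000023067, chromosome 17, 29090976 to 29100727), had 1783, 1870 and 1970 CPM at d4 and 256, 214 and 219 CPM at d0 (3.03 ± 0.09, edgeR adjusted p = 7.29e-14). Rb1, the retinoblastoma protein that shuts off E2F targets, had 139, 142 and 135 CPM at d4 and 33.6, 47.1 and 38.0 CPM at d0 (1.81 ± 0.11). Cdkn1c, the inhibitor p57, had 5.30, 8.12 and 7.03 CPM at d4 and 1.86, 2.27 and 1.90 CPM at d0 (1.76 ± 0.23). These brakes were higher in all d4 libraries than in any d0 library, but others were not. Cdkn2c, the inhibitor p18, had 21.2, 20.7 and 21.4 CPM at d4 and 53.9, 55.4 and 52.3 CPM at d0 (-1.35 ± 0.09) and fell. Cdkn2d, the inhibitor p19, which was added after its values were seen, had a log2 fold change of -1.05 and was called lower, and at -0.94 and -0.99 it was not called without d0 replicate 1 or d4 replicate 1. Cdkn1b, the inhibitor p27, also added afterwards, was at -0.15 and not called. The D cyclins went apart. Ccnd3, the D cyclin that stays with Rb in myotubes, had 616, 651 and 690 CPM at d4 and 150, 118 and 108 CPM at d0 (2.38 ± 0.11), and Ccnd1, the D cyclin induced by growth factors, had 61.8, 69.9 and 64.8 CPM at d4 and 346, 316 and 231 CPM at d0 (-2.18 ± 0.12). Rbl1, the Rb relative p107 of cycling cells, had 11.4, 12.7 and 12.3 CPM at d4 and 46.4, 60.9 and 46.1 CPM at d0 (-2.07 ± 0.13). Of 15 targets of p53, 2 rose and 1 fell, against 12.6% and 13.0% of all genes tested. Eda2r, an ectodysplasin receptor, had 329, 312 and 305 CPM at d4 and 30.5, 35.6 and 36.6 CPM at d0 (3.20 ± 0.09). The count of p53 targets that rose was 4 without d4 replicate 2.

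Biosynthesis of growing cells was lower in parts. In the MYC and ribosome biogenesis list 7 of 27 tested fell and 1 rose, with a median of -0.47. Myc had 27.7, 27.3 and 27.4 CPM at d4 and 61.2, 60.6 and 84.0 CPM at d0 (-1.32 ± 0.12). Rrp12, a factor of ribosome export, was the one that rose, at 94.1, 96.4 and 95.2 CPM at d4 and 48.6, 43.8 and 45.1 CPM at d0 (1.06 ± 0.08), and with library totals as the scale it had a log2 fold change of 0.92 and was not called. Of 24 genes of serine, one-carbon and nucleotide synthesis 8 fell, none rose and the median was -0.75. Mthfd1l, which makes formate in mitochondria, had 38.8, 41.0 and 33.2 CPM at d4 and 163, 156 and 190 CPM at d0 (-2.17 ± 0.10). Cad, the first enzymes of pyrimidine synthesis in 1 protein, had 63.0, 63.4 and 60.7 CPM at d4 and 232, 171 and 177 CPM at d0 (-1.63 ± 0.11). Myc, Mthfd1l and Cad were below every d0 library in each d4 library.

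The promoters of genes that rose and fell were read for short motifs of the factors named above. RefSeq sequence (GRCm38.p6) of 250 bases before each transcription start was searched on both strands, and the stretch printed for each gene is the last 160 of these bases, 5′ to 3′ along the gene. RefSeq starts can differ from those of the expression tables, which place Chrng from 87204657 on, so that its window lies inside the gene as listed there. Chrng was printed for its rise, described above, Pgam2 as the muscle enzyme the study follows, and Chrna1, Cdk1 and Cdc20 were chosen after their motifs and values were seen. Chrna1 is the alpha subunit of the acetylcholine receptor, Cdk1 the mitotic kinase and Cdc20 an activator of the enzyme that ends mitosis. Capitals mark the E-box CAGCTG, a form of CANNTG that MyoD and myogenin favor, and the MEF2 site in the first 3, and the cell cycle homology region TTTGAA (CHR) and the CCAAT box, which reads ATTGG where it lies on the other strand, in the last 2.
Chrna1 (chr2:73580339-73580498, minus strand): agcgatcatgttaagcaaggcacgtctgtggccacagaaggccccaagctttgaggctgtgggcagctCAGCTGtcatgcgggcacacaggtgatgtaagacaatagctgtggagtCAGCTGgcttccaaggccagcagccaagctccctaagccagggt
Chrng (chr1:87205651-87205810, plus strand): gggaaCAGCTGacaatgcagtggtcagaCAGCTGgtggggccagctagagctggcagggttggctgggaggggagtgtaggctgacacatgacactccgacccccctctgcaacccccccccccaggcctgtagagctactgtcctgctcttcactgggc
Pgam2 (chr11:5803797-5803956, minus strand): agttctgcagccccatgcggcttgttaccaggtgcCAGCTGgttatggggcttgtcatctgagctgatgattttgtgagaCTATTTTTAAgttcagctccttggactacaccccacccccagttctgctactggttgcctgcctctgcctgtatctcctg
Cdk1 (chr10:69352913-69353072, minus strand): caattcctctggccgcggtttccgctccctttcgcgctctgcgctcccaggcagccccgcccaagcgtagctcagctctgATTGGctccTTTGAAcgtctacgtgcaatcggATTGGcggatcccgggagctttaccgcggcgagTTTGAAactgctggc
Cdc20 (chr4:118437344-118437503, minus strand): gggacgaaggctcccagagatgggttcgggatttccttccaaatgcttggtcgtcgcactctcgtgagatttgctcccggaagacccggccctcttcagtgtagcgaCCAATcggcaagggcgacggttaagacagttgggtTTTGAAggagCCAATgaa
The CAGCTG copies begin 92 and 44 bases before the start of Chrna1, 155 and 132 bases before the RefSeq start of Chrng and 125 bases before that of Pgam2, where the MEF2 site begins at 80 bases. In Cdk1 the CCAAT boxes begin 80 and 48 bases and the CHR copies 71 and 15 bases before the start, and in Cdc20 the CCAAT boxes begin at 53 and 8 bases and the CHR at 18 bases.

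The same motifs were counted over 4 sets of promoters, with matches given as descriptions of letters and not of binding. The acetylcholine receptor genes Chrna1 and Chrng belong to none of these sets. The myosin set holds light chain kinases and myosin-binding proteins beside the chains. CAGCTG was in 35% of 20 promoters of myosin set genes that rose (18 of 19 genes matched) and in 44.4% of 18 promoters of muscle enzyme forms that rose (13 of 16 matched). It was in 9.68% of 31 promoters of mitosis genes that fell (29 of 36 matched), in 0 of 32 promoters of DNA replication genes that fell (25 of 31 matched) and in 13.0% of all 32851 promoters. The broader CANNTG was in 80%, 88.9%, 54.8%, 50% and 66.2% of these sets in the same order. The MEF2 site was in 4 of 20 myosin promoters (20%) and 1 of 18 muscle enzyme promoters (5.56%), against 2.92% of all. It was in 1 of 31 mitosis promoters and 0 of 32 replication promoters. The CHR was in 41.9% of mitosis promoters and 12.5% of replication promoters, against 16% of all, and the CCAAT box was in 77.4% and 59.4% of them, against 33.8% of all. In the myosin and muscle enzyme promoters the CCAAT box was in 35% and 44.4%, and the CHR in 5.00% and 16.7%. The CArG box of serum response factor was in 1 of 20 myosin promoters and 1 of 32 replication promoters. It was in 0 of the muscle enzyme and mitosis promoters and in 1.47% of all, so these shares rest on single promoters.

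Many enzymes and structural proteins come in a form made mainly in muscle and a form made in most cells, and 19 such pairs were followed as the share of the muscle form in the summed RPKM of the pair. For lactate dehydrogenase the form counted as the muscle form was Ldhb, the subunit of heart and oxidative muscle, and its partner Ldha is the main subunit of skeletal muscle, so this pair does not set a skeletal muscle form against a general one. Its share of Ldhb was 6.62% at d4 and 1.80% at d0, and it is included in the counts. The mean share was higher at d4 in all 19 pairs, and in 18 the libraries of the days did not overlap, which gave the smallest two-sided exact permutation p that 3 against 3 libraries allow, 0.1 (0.11 after Benjamini-Hochberg adjustment over the 19 pairs), so no pair could pass 0.05. The mean share was over 50% in 7 pairs at d4 and in 0 at d0, where Eno3 passed 50% in 1 library. In glycogen breakdown, Pygm against Pygb held 88.2%, 88.6% and 87.9% at d4 and 5.62%, 6.05% and 9.44% at d0. In glycolysis, Pfkm against Pfkl held 86.1%, 84.8% and 85.9% at d4 and 31.8%, 30.6% and 33.7% at d0, and Eno3 against Eno1 held 80.6%, 78.6% and 80.3% at d4 and 49.3%, 45.1% and 51.9% at d0. The enolase pair thus started near parity and the phosphorylase pair did not. Eno3 had a log2 fold change of 0.97, short of a call that it reached without d0 replicate 1 (1.16) or d4 replicate 1 (1.001), and Eno1 one of -1.09, which was -0.92 and not called without d0 replicate 1.

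The exchange was complete in no pair, and for some it was slight. The fast-fiber calcium pump Atp2a1 held 48.8% ± 0.85 of its pair with Atp2a2 at d4 and 8.74% ± 0.37 at d0 (SD, n = 3 each). Atp2a2 also serves slow and cardiac muscle and rose as well (1.80 ± 0.08). This pair therefore does not set a muscle form against a purely general one, and it is included in the counts. Ckm held 45% ± 0.92 at d4 and 2.70% ± 0.44 at d0, and its general partner Ckb rose as well, with 372 ± 19.4 CPM at d4 and 91.7 ± 14.6 CPM at d0 (2.02 ± 0.10). Slc2a4, the insulin-regulated glucose transporter, held 5.16% ± 1.12 at d4 and 0.14% ± 0.05 at d0. The adenine nucleotide translocases were the pair whose libraries overlapped, with Slc25a4 at 45.1%, 45.2% and 46.2% at d4 and 42.3%, 43.2% and 45.2% at d0 (exact permutation p = 0.3). In 4 of the 19 pairs the muscle gene was called higher and the general gene called lower. In 16 pairs the muscle gene was called higher, and the general gene was called lower in 6, higher in 2 and not called in 11.

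**Figure D4:**
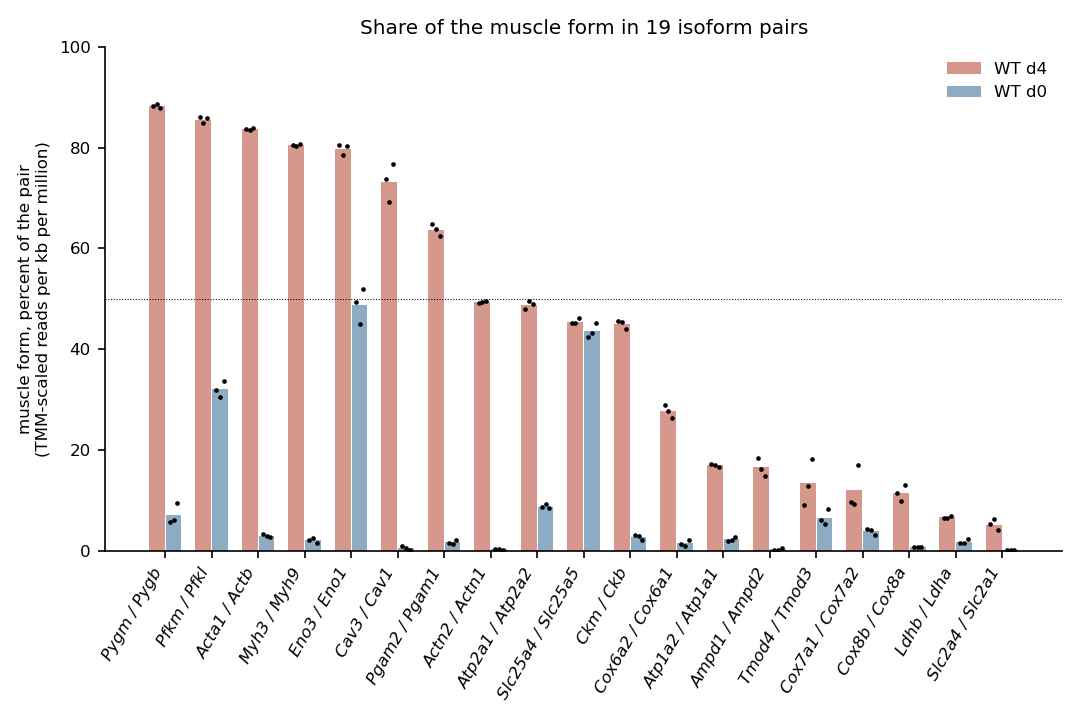
Share of the muscle form in the summed RPKM of each of 19 isoform pairs (y axis, percent), with bars at the mean of 3 libraries, points for single libraries, and WT d4 (red) left of WT d0 (blue). The dotted line marks 50%, which the means of 7 pairs pass at d4 and of none at d0, and the share runs from 88.2% for Pygm to 5.16% for Slc2a4 at d4.

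Over the whole lists of these enzymes, 16 of 22 tested muscle forms, Ldhb among them, rose and none fell (median 3.08), while of 22 general forms 2 rose and 4 fell (median -0.53). Glycogen genes rose in 6 of 12 tested. Gys1, the muscle glycogen synthase, had 168, 174 and 184 CPM at d4 and 65.9, 71.1 and 62.2 CPM at d0 (1.40 ± 0.08), so that genes of storage and of breakdown rose together. Fatty acid oxidation and the TCA cycle changed little by these thresholds, with 3 higher and 1 lower of 29 tested and a median of 0.17. Of all genes tested 12.6% were higher and 13.0% lower. Cd36, the fatty acid importer, had 39.4, 41.2 and 36.5 CPM at d4 and 0.930, 1.07 and 0.794 CPM at d0 (5.38 ± 0.16). Fabp3, the muscle fatty acid carrier, had 75.6, 67.7 and 86.1 CPM at d4 and 4.09, 3.24 and 3.53 CPM at d0 (4.4 ± 0.13). Cpt1a, the liver-type gate of mitochondrial fatty acid entry, had 51.7, 51.8 and 50.4 CPM at d4 and 117, 107 and 104 CPM at d0 (-1.09 ± 0.08). Beside Cd36 and Fabp3, the other gene of this list that rose was Pdk2, while Lpl and Acsl1 were not called. Of 27 genes of cholesterol and fatty acid synthesis 2 rose and 2 fell, against 12.6% and 13.0% of all genes tested. The count of this list that rose was 4 without d0 replicate 2. It was 1 with library totals as the scale and 1 by a test against the fold threshold. Of 22 genes of the amino acid stress response 1 rose and 4 fell, against the same shares of all genes. The count that fell was 2 without d0 replicate 3. Slc7a11, the cystine importer, had 6.31, 6.01 and 4.88 CPM at d4 and 15, 22.7 and 25.4 CPM at d0 (-1.87 ± 0.19).

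Transcripts of matrix genes changed in both directions, and most were not called. Of 20 tested collagens 6 rose and none fell (median 0.55), but 3 rose by a test against the fold threshold (glmTreat) and 1 by limma on log2(FPKM + 1). Col4a1 of the basement membrane had 718, 766 and 713 CPM at d4 and 356, 325 and 297 CPM at d0 (1.17 ± 0.08). Of 37 laminins, proteoglycans and matrix enzymes 8 rose and 5 fell, against 12.6% and 13.0% of all genes tested. Decorin (Dcn), a small proteoglycan that binds collagen and TGF-beta, had 558, 548 and 526 CPM at d4 and 22.6, 21.6 and 24.3 CPM at d0 (4.58 ± 0.09, edgeR adjusted p = 3.64e-16). Lumican (Lum), its relative, had 18.9, 22.3 and 20.4 CPM at d4 and 0.186, 0.178 and 0.309 CPM at d0 (6.47 ± 0.24), and both are also used as fibroblast markers. Nid1, the nidogen that links laminin to collagen IV, had 252, 262 and 245 CPM at d4 and 684, 745 and 657 CPM at d0 (-1.46 ± 0.08). Col4a1 and Nid1 therefore moved in opposite directions in the same libraries, while their relatives Col4a2 and Nid2 were not called.

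Secreted growth factors included some of the strongest single changes, although 7 of 26 genes of this list rose and 4 fell. Of all genes tested 12.6% rose and 13.0% fell. Fgf21, a hormone that stressed or energy-limited muscle releases (ENSMUSG00000030827, chromosome 7, 45613886 to 45615490), had 225, 254 and 200 CPM at d4 and 4.70, 3.91 and 4.45 CPM at d0 (5.70 ± 0.12, edgeR adjusted p = 1.08e-15). Follistatin (Fst), which traps myostatin and activins, had 64.0, 70.2 and 65.4 CPM at d4 and 3.39, 3.20 and 2.56 CPM at d0 (4.45 ± 0.13). Igf1 had 42.2, 41.0 and 34.8 CPM at d4 and 4.65, 6.31 and 6.39 CPM at d0 (2.76 ± 0.14). Each of these ligands was at or under 6.39 CPM in all d0 libraries and at or above 34.8 CPM in all d4 libraries. The binding proteins of IGF split, with Igfbp4 at 75.1, 78.9 and 78.4 CPM at d4 and 18.5, 16.8 and 18.2 CPM at d0 (2.12 ± 0.09) and Igfbp2 at 141, 152 and 139 CPM at d4 and 545, 467 and 416 CPM at d0 (-1.73 ± 0.10). Hgf, the factor that activates satellite cells, had 20.8, 16.6 and 16.2 CPM at d4 and 47.1, 72.3 and 51.6 CPM at d0 (-1.67 ± 0.15).

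In Notch, BMP, TGF-beta and Wnt signalling 7 of 30 tested rose and 5 fell, against 12.6% and 13.0% of all genes tested. The count that fell was 3 by glmTreat and by limma on log2(CPM + 1). Dll1, a Notch ligand, had 17.7, 17 and 17.6 CPM at d4 and 3.44, 3.64 and 4.19 CPM at d0 (2.21 ± 0.15). Heyl, a Notch target, had 68.9, 68.9 and 73.5 CPM at d4 and 12.6, 12.7 and 10.1 CPM at d0 (2.58 ± 0.11). Wnt9a, a Wnt ligand, had 63.5, 64.9 and 68.5 CPM at d4 and 10.3, 8.62 and 9.79 CPM at d0 (2.78 ± 0.11), and Dkk2, a Wnt antagonist, had 1.34, 2.06 and 1.89 CPM at d4 and 9.999, 12.5 and 5.11 CPM at d0 (-2.39 ± 0.30). Dll1, Heyl and Wnt9a were thus higher in every d4 library than in any d0 library, but they do not stand for their pathways. Hes6 and Hey1 of the same list were also called higher. Notch1, Notch2, Notch3, Jag1, Jag2 and Hes1 were not called, and neither were Wnt4, Wnt10b and Axin2. Of 28 serum response and YAP targets 3 rose and 5 fell, against 12.6% and 13.0% of all genes tested. Fosl1, the AP-1 subunit Fra-1 of growing cells, had 3.10, 4.48 and 4.49 CPM at d4 and 73.8, 66.7 and 48.2 CPM at d0 (-3.97 ± 0.18), and Ankrd1, a YAP target that muscle also makes, had 1291, 1249 and 1140 CPM at d4 and 369, 421 and 471 CPM at d0 (1.54 ± 0.09).

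Genes of protein turnover and folding in muscle were among those that rose. Of 25 genes of atrophy, FoxO and proteolysis 9 rose and none fell, but without d0 replicate 2 the count that fell was 1. Klhl41, a Cullin-3 adaptor of the sarcomere, had 606, 625 and 647 CPM at d4 and 7.44, 6.27 and 4.76 CPM at d0 (6.67 ± 0.13). Trim63, the ubiquitin ligase MuRF1 that is known for atrophy, had 46.5, 48.1 and 55.9 CPM at d4 and 0.791, 0.755 and 1.06 CPM at d0 (5.84 ± 0.16). Of 15 small heat shock proteins and chaperones 6 rose and 1 fell. Hspb7, a muscle member that binds filamin, had 188, 190 and 178 CPM at d4 and 0.651, 0.889 and 1.10 CPM at d0 (7.70 ± 0.14). Hspb6 was the exception, with 11.8, 12.7 and 13.6 CPM at d4 and 32.7, 25.5 and 29.2 CPM at d0 (-1.20 ± 0.12).

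Imprinted and noncoding RNAs of muscle rose in 7 of 12 tested and fell in 1 (median 1.49). H19, an imprinted noncoding RNA (ENSMUSG00000000031, chromosome 7, 142575529 to 142578143), took 1.39% of all reads at d4, more than any other gene, with 14499, 14451 and 14771 CPM at d4 and 736, 649 and 504 CPM at d0 (4.53 ± 0.13). Malat1, a nuclear noncoding RNA, had 5297, 4113 and 5217 CPM at d4 and 632, 673 and 823 CPM at d0 (2.78 ± 0.12). Grb10, an imprinted brake of insulin and IGF receptors, had 6.31, 5.17 and 5.14 CPM at d4 and 0.186, 0.133 and 0.0441 CPM at d0 (5.46 ± 0.38). At d0 the most read gene was the elongation factor Eef1a1, with 0.751% of reads. Among genes of interferon, chemokines and antigen presentation 3 of 28 rose and 6 fell, against 12.6% and 13.0% of all genes tested. Cxcl5, a neutrophil chemokine, had 2.14, 1.69 and 1.76 CPM at d4 and 25.1, 30.8 and 35.9 CPM at d0 (-4.03 ± 0.18). Il15, a cytokine that muscle secretes, had 4.87, 5.53 and 6.18 CPM at d4 and 0.791, 0.755 and 0.353 CPM at d0 (3.12 ± 0.30). Csf1, the macrophage growth factor, had 69.1, 76.9 and 72.8 CPM at d4 and 341, 291 and 346 CPM at d0 (-2.16 ± 0.09).

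The SUMO machinery, which the study concerns through its target enzyme, changed little by the fold threshold. None of 20 tested genes rose, 10 had an adjusted p under 0.05 in the downward direction, and the median was -0.24. Senp1, a SUMO protease, was the 1 called lower, with 31.1, 30.9 and 26.2 CPM at d4 and 62.7, 61.4 and 55.4 CPM at d0 (-1.02 ± 0.10). Senp1 overlaps Pfkm, and its call ended without d0 replicate 1, d0 replicate 2 or d4 replicate 3 (-0.95, -0.99 and -0.95). Without d0 replicate 3 the count of genes called lower in this list was 2. Of 16 satellite and reserve cell genes 4 rose and 2 fell, against 12.6% and 13.0% of all genes tested. The count that fell was 0 by glmTreat, 1 by limma on log2(FPKM + 1) and 4 with library totals as the scale. Cxcr4, the receptor of Cxcl12, had 50.1, 53 and 49.7 CPM at d4 and 16.9, 17.7 and 15.4 CPM at d0 (1.61 ± 0.10), and Cxcl12, its ligand, had 66.9, 69.2 and 68.5 CPM at d4 and 226, 241 and 268 CPM at d0 (-1.85 ± 0.08). Receptor and ligand thus moved in opposite directions. Cd34, a marker of quiescent satellite cells, had 26.7, 24.4 and 27.9 CPM at d4 and 63.0, 55.5 and 62.0 CPM at d0 (-1.19 ± 0.10).

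Across all 43 lists, which hold 785 tested genes, 29.3% were called higher and 19.5% called lower, against 12.6% and 13.0% of all genes. The lists were chosen for muscle differentiation with results of these data known, so the excess over all genes describes the choice as well as the cells. Where the counts of a list were near the shares of all genes, the genes named from it stand for themselves and not for the list.

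Markers of other cells were counted list by list, and their part in the results above was not tested. Of 10 adipocyte markers 3 were tested, and Adipoq, Plin1, Lep and Retn were listed at neither day. Plin4, a lipid droplet protein, had 12.6, 9.54 and 14.6 CPM at d4 and 27.6, 31.8 and 39.6 CPM at d0 (-1.44 ± 0.16), and the list summed to 44.3 to 44.9 CPM at d4 and 78.7 to 95.9 CPM at d0. Of 10 osteoblast and chondrocyte markers 3 were tested, 1 of which rose (Dmp1, 1.57), and the sums overlapped at 128 to 135 CPM at d4 and 120 to 145 CPM at d0. Of 13 fibroblast and smooth muscle markers 11 were tested, 3 rose (Des, Dcn and Lum), 3 fell and Acta2, the smooth muscle actin, had 1435, 1520 and 1481 CPM at d4 and 938, 707 and 839 CPM at d0 without a call (0.84), and the list, of which desmin averaged 4473 CPM at d4 and 1208 CPM at d0, summed to 7044 to 7404 CPM at d4 and 2654 to 3143 CPM at d0. Neuron and glia markers had 0 higher and 2 lower of 4 tested, with sums of 75.6 to 96.6 CPM at d4 and 112 to 222 CPM at d0, and Nefl, the light neurofilament, had 7.43, 10.8 and 8.53 CPM at d4 and 102, 105 and 56.0 CPM at d0 (-3.30 ± 0.21). Blood, endothelium and epithelium markers had 0 higher and 3 lower of 3 tested, at 15.5 to 17.2 CPM at d4 and 59.2 to 71.8 CPM at d0, led by Krt19 (-2.10), and 5 were lower when d0 replicate 3 or any of the d4 replicates was left out. Cardiac markers had 2 higher and 1 lower of 4 tested, at 40.3 to 44.1 CPM at d4 and 30.6 to 33.2 CPM at d0, and 2 were lower without d0 replicate 3 or d4 replicate 1. Nppa, Myl7 and Hand2 were listed at neither day. The median log2 fold change of 15 housekeeping genes was -0.42, and by edgeR 9 were lower and 2 higher at adjusted p under 0.05. Their sums were 9063 to 9801 CPM at d4 and 11871 to 14118 CPM at d0. With the fold threshold, Tfrc, the transferrin receptor, rose (1.76) and Actb fell, a call that was lost without d0 replicate 1. Gapdh had 2661, 2944 and 2726 CPM at d4 and 2799, 2435 and 2266 CPM at d0 (0.15, not called).

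Genes of hepatocytes gave reads in the d4 libraries of both genotypes. A list of 31 such genes was drawn up after Alb, the serum albumin gene, was seen among those listed at d4 alone. They took 446, 242 and 658 reads in the d4 libraries and 17, 8 and 14 reads in the d0 libraries, which is 0.00228%, 0.00121% and 0.00407% of reads at d4. The d4 libraries of the Pgam2 mutant cells held 843, 1865 and 1540 such reads. Of the 31 genes, 23 were listed at d4 alone and were taken as 0 reads at d0. With these included, 25 had no read in any d0 library, and all 31 had reads in at least 1 d4 library. The 1 that was tested, Cyp2e1, was called higher at d4, and the part of these reads in other results was not tested.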

How the data were processed

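Poly(A) RNA of WT C2C12 cells was sequenced as paired-end reads on an Illumina platform, with 3 libraries at d4 and 3 at d0. The authors deposited, for each day, read counts per gene and FPKM values (fragments scaled to gene length and library size) on mm10, and the submitters' processing notes also name DESeq2 1.20.0. The sources used here name no aligner or counter and do not say whether counting used strand. Groups were taken from sample titles, since another tag of the labels follows genotype and contradicts the day. The deposited count columns beside the WT d4 FPKM hold the mutant's counts, so reads of WT d4 were recovered by multiplying FPKM by gene length and 1 divisor per library, and 100% of values came out whole within 0.01 reads. In all, 9 per-sample columns were left out, these 3 among them. Fold change and p columns of the authors' own comparisons were not used.

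Counts of genes listed at both days were filtered with filterByExpr, TMM normalized and tested with edgeR 4.0.16 (quasi-likelihood, R 4.3.3, limma 3.58.1), with Benjamini-Hochberg adjustment over 14336 genes and a call at adjusted p under 0.05 and absolute log2 fold change above 1. SE is the log2 fold change over the square root of F. The scripts were tested on simulated data. Alternatives were other scalings and filters, DESeq2 1.42.0, limma on CPM or FPKM, a replicate block, and fits without single libraries. Tables and figures used Python 3.11.15, pandas 2.3.3 and matplotlib 3.10.9.

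Members and lists were chosen with earlier results of these data known. Named genes were the 10 largest rises and falls with separate libraries and at least 5 CPM in the higher day, up to 5 called members per direction and 2 uncalled members of each list, all members of small lists, isoform pairs, line markers and genes the study follows between days. Chrna1, Cdk1 and Cdc20, the printed promoters and the hepatocyte list were chosen after values were seen. Depth limits precision at low counts, and intervals cover counting error only. A few list members are not reported here.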

Additional observations from a re-analysis of the deposited data

Results flagged for a closer look

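Genes listed at 1 day alone lay outside the comparison and were looked at separately. At d4 alone 3013 genes were listed, of which 76 had a mean above 10 reads in the WT libraries (42 protein coding), and at d0 alone 2180 genes were listed, of which 11 had such a mean (8 protein coding). Among the 76 were muscle genes with no entry at d0. Ckmt2, the mitochondrial creatine kinase of muscle, had 102, 141 and 113 reads at d4, Ppp1r3a, the muscle subunit that brings a phosphatase to glycogen, had 113, 67 and 62 reads, and Kcnj11, the pore of the ATP-sensitive potassium channel, had 15, 25 and 23 reads. Nctc1, a noncoding RNA near H19, had 106, 85 and 108 reads, and Gdf5, a BMP ligand, had 88, 50 and 47 reads. Alb had 185, 96 and 271 reads at d4. Of the 11, Car12, a membrane carbonic anhydrase, had 10, 26 and 15 reads at d0. A gene missing from a day's list was taken as 0 reads in 1 alternative and in the hepatocyte read counts, and no fold change is given here.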

How the results depend on the processing

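Against 1800 genes higher and 1863 lower at d4, limma on log2(FPKM + 1) called 899 higher and 1167 lower, glmTreat, which tests against the fold threshold itself, called 1255 higher and 1126 lower, and without a fold threshold edgeR called 4293 higher and 4678 lower. The first tests values with a pseudocount that shrinks low genes, the second sets a stricter null, and the third drops a criterion. All other settings stayed within 1.5 times of these counts: RLE 1846 and 1794, upper quartile 1733 and 1952, no filter 2057 and 2166, DESeq2 2005 and 1877, limma on CPM 1325 and 1290, limma on log2(FPKM + 0.1) 1336 and 1803, all 12 libraries 1913 and 2010, and genes of either day 1856 and 1867. With library totals as the scale the counts were 1568 and 2246, the median of all genes shifted by -0.14, and higher genes were 41.1% of calls in place of 49.1%. With limma on FPKM they were 42.6% (pseudocount 0.1) and 43.5% (pseudocount 1). Leaving out single libraries gave 1839 to 1914 higher and 1763 to 1956 lower. The alternatives were compared over the 318 named genes, of which 315 were tested by limma on FPKM. No gene called in the main fit or in the alternative reversed direction between them. Changes of sign in genes called in neither were not counted. The setting that lost the most, glmTreat, ended 26 of the calls of named genes.

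Samples were treated as unpaired. Deviations of same-numbered libraries from the mean of their day correlated at -0.09, -0.03 and -0.05, and those of differently numbered libraries at -0.02 to 0.06. With 3 libraries a day these values cannot show whether the replicates were paired. With the replicate block 1769 genes were higher and 1834 lower, and no named call changed. Folds with 1 to 3 reads at d0 are limited by depth.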
